A study of Homo sapiens with 6 samples.

Results

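The red cell membrane and blood group genes examined here are 8 genes: GYPB, GYPC, RHAG, SLC4A1, ANK1, EPB41, EPB42 and TMOD1. They were picked by symbol from the 35410 genes of the deposited count table, and each symbol matched 1 row. RNA came from SEM, a human cell line established from a KMT2A::AFF1 (t(4;11)) B cell precursor leukemia, in 2 versions. SEM::EGR3 carries a doxycycline-inducible EGR3 transgene and SEM::mock the empty vector, and both received 1 µg/mL doxycycline for 48 h, so the drug is common to both. There were 3 biological replicates of each, profiled by MACE-Seq, which counts the 3′ ends of polyadenylated transcripts. Since each condition is represented by 1 modified line, any other difference between the lines and the effect of EGR3 cannot be told apart, and the labels do not say whether a line is a clone.

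The red cell membrane is a lipid bilayer held by a net of spectrin tetramers and short actin filaments. Ankyrin-1 (ANK1) ties β-spectrin to the anion exchanger band 3 (SLC4A1) with the help of protein 4.2 (EPB42), and protein 4.1R (EPB41) ties the spectrin-actin junctions to glycophorin C (GYPC). Glycophorins and the Rh complex, which includes the Rh-associated glycoprotein RHAG, carry blood group antigens, and tropomodulin-1 (TMOD1) caps the slow-growing ends of the actin filaments. Defects of ankyrin, band 3, spectrin or protein 4.2 cause hereditary spherocytosis, and defects of protein 4.1R cause elliptocytosis. Several of these genes are also used outside red cells, among them EPB41 and TMOD1.

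The depth over all listed genes was 5286115 to 6181388 counts in SEM::mock and 7293092 to 15106018 counts in SEM::EGR3. EGR3 had 6 to 10 counts in the SEM::mock libraries and 4952 to 9768 in the SEM::EGR3 libraries, as the labels state. The proB label was checked against B-lineage markers. Of 12 such genes, 9 had 3 counts or fewer in every SEM::mock library, PAX5 with 1 to 2 and EBF1 with 0 among them, while 3 were that low in SEM::EGR3. Their summed level was 2.83 to 5.88 CPM (counts per 1000000 after TMM normalization) in SEM::mock and 497 to 524 CPM in SEM::EGR3. CD34 had at most 1 count in any of the 6 libraries. In SEM::mock these markers thus go against the labelled cell type, in all 3 libraries alike. Erythroid genes were present in both lines: 14 of 16 erythroid markers had over 3 counts in every library, and their summed level was 4388 to 4616 CPM in SEM::mock and 4385 to 4470 CPM in SEM::EGR3. HBG2, the fetal γ-globin gene, had the most counts among them, with 2343 ± 38.2 CPM in SEM::mock and 949 ± 30.7 CPM in SEM::EGR3 (SD, n = 3 each). HBB and AHSP, by contrast, had at most 2 counts in any library. The summed erythroid levels were close in both lines although single genes changed in opposite directions, most of them downwards, as given below. The erythroid RNA goes against the proB label in SEM::EGR3 as well as in SEM::mock. Megakaryocyte markers summed to 19.2 to 21.7 CPM in SEM::mock and 18.5 to 20.6 CPM in SEM::EGR3, with ITGA2B the most counted in SEM::mock. These sums hide opposite changes. Of 4 tested, 2 were higher and 2 lower in SEM::EGR3 (50% each, against 36.5% and 32.0% of all tested genes, edgeR, adjusted p under 0.05). The part of the erythroid and B-lineage genes in the results below was not tested.

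Of the 8 genes, 7 had enough counts for the test and EPB42 did not. RNA of GYPB, GYPC, RHAG and EPB41 was lower in SEM::EGR3, by 1.75- to 3.38-fold, and RNA of ANK1 was 1.93-fold higher. SLC4A1 rose from a few counts and passed the low-count filter only through SEM::EGR3. A gene of this kind had to differ to be tested, so its call is no separate support for a difference. SLC4A1 is still included in the counts and the median that follow. TMOD1 missed the threshold. In numbers, 2 of the 7 tested genes were called higher and 4 lower at an adjusted p under 0.05 in edgeR's quasi-likelihood test, where 36.5% of all 15465 tested genes were called higher and 32.0% lower. In all 7 the 3 SEM::EGR3 libraries did not overlap with the 3 SEM::mock libraries, which was true of 70.1% of all tested genes. The median log2 fold change was -0.81 over the 7 genes and 0.03 over all tested genes. With changes that common, a count of this kind says little about the 8 genes as a set, and their individual values follow. In bulk RNA, fewer expressing cells and less RNA per cell cannot be told apart.

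**Figure D1:**
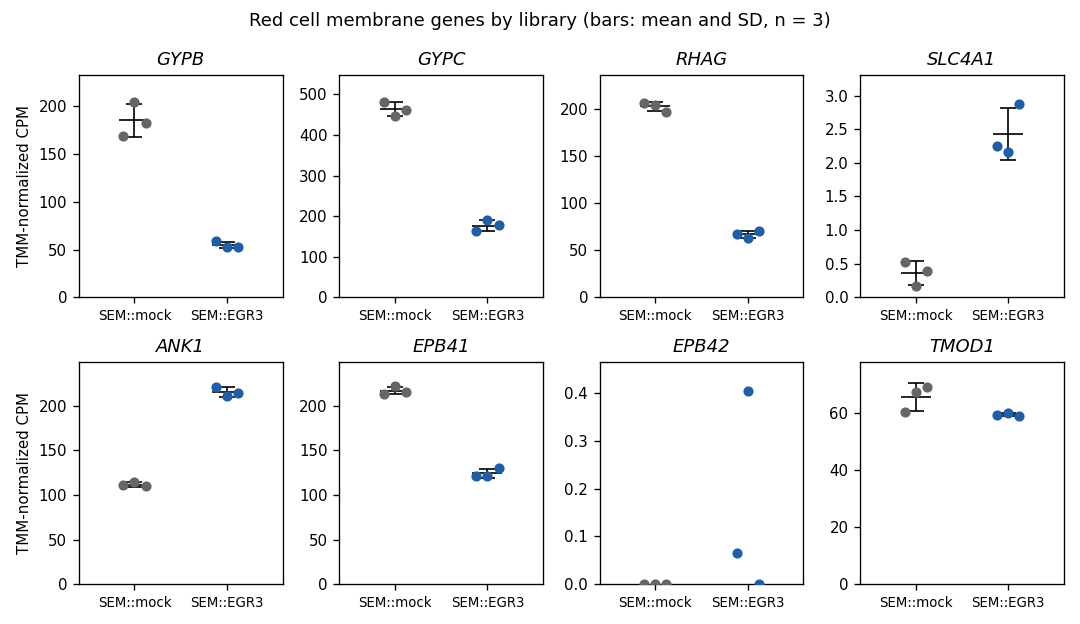
TMM-normalized CPM (vertical axis, from 0) of the 8 genes in each library of SEM::mock (gray) and SEM::EGR3 (blue); points are libraries and black marks the mean and SD (n = 3), which are left out for EPB42. GYPB, GYPC, RHAG and EPB41 lie lower and ANK1 and SLC4A1 higher in all 3 SEM::EGR3 libraries, TMOD1 differs little, and EPB42 is at 0 in SEM::mock.

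Promoter windows of the 3 members that fell most and of GYPE, a paralog of one of them, are shown to compare the letters before their starts. They are RefSeq windows on GRCh38.p14, from 250 bases before to 50 bases after an annotated start, read on the coding strand. The first listed window of each gene is printed. Windows of 6 of the 8 genes were examined: ANK1 was left out of the search, and no window of SLC4A1 was found. GYPB is at chr4:144019331-144019630 (minus strand), GYPE at chr4:143905510-143905809 (minus), RHAG at chr6:49636790-49637089 (minus) and GYPC at chr2:126655908-126656207 (plus). Capitals mark GATA words (AGATAA or TGATAA) and CACCC words (CCACACCC or CCCCACCC) on either strand, the kinds of words bound by GATA1 and KLF1.
GYPB: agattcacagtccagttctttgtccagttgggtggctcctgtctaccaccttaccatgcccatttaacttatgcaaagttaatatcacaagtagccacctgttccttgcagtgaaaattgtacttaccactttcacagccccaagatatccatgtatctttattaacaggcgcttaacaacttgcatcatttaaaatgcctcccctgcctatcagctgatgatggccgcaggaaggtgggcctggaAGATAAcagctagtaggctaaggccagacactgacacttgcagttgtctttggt
GYPE: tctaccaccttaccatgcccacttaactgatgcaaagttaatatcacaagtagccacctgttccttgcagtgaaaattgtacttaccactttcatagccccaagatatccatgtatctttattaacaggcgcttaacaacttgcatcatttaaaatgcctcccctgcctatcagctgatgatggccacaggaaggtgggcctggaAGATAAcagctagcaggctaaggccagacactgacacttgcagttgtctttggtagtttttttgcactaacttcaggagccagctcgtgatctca
RHAG: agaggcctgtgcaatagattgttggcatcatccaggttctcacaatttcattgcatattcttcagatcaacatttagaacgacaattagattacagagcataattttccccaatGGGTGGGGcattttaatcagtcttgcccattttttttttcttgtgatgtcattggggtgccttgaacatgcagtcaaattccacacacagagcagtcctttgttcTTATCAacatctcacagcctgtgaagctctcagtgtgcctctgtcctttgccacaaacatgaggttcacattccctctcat
GYPC: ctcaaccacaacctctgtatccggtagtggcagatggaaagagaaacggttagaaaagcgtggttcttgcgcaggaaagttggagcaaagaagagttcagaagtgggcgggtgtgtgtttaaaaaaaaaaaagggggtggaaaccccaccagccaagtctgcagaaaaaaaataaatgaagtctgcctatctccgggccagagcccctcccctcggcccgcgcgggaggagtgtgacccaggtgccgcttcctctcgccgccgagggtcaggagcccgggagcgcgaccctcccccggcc
The GYPB and GYPE windows were 98.1% identical over 259 compared bases, and each held 1 GATA word. RHAG held 1 GATA word and 1 CACCC word, and GYPC held neither. Among the members outside these lines, EPB42 had 2 GATA words and the windows of EPB41 and TMOD1 none. The first windows of RHCE and RHD, which are not printed, each held 1 GATA word. For comparison, 16.3% of all 35116 promoter windows in the table held a GATA word and 13.9% a CACCC word. The EGR words GCGTGGGCG and GCGGGGGCG, present in 5.77% of all windows, occurred in no window of the 6 members examined. The first window of SPTB, the β-spectrin gene, held 1 EGR word, 1 GATA word and 1 CACCC word, and its second window held none of them. These matches describe letters in short windows only.

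GYPB encodes glycophorin B, a small sialoglycoprotein that carries the S and s antigens of the MNS blood group. The gene (ENSG00000250361) lies on chromosome 4 of GRCh38 from 143996104 to 144019345, minus strand. Replicates 1 to 3 of SEM::mock gave 955, 1217 and 928 counts, and those of SEM::EGR3 gave 908, 393 and 475. Scaled for depth, these are 169, 204 and 182 CPM in SEM::mock against 58.6, 52.9 and 52.5 CPM in SEM::EGR3. All SEM::EGR3 libraries were thus far below all SEM::mock libraries, although the raw counts of the deepest SEM::EGR3 library were close to those of SEM::mock. The log2 fold change was -1.75 with a standard error of 0.07 (Benjamini-Hochberg adjusted p = 6.54e-17, edgeR). Only 2.46% of all tested genes had a lower log2 fold change.

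GYPB has near-identical relatives, so the sharing of its 3′ end was measured. In the last 500 bases of its coding transcripts in GENCODE release 29, 15.2% of all 50-base words also occur in a transcript of another gene. The annotated ends of GYPC, RHAG, ANK1, SLC4A1 and TMOD1 share no such word with another gene. That of EPB41 shares 0.345% and that of EPB42 23.8%. How reads matching several genes were counted is not given in the sources used here, so the counts of GYPB are uncertain. A share of words is not a share of reads, so it does not give the size of that uncertainty. GYPE, a close relative, lies 90541 bases from GYPB. GYPE went down from 93.8 ± 1.57 to 25.8 ± 2.89 CPM (SD, n = 3 each), or by a log2 value of -1.84 (SE 0.08, adjusted p = 1.64e-16, edgeR). GYPB and GYPE were therefore both lower in each SEM::EGR3 library than in any SEM::mock library.

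GYPC (ENSG00000136732, chromosome 2, 126655933 to 126696670, plus strand) encodes glycophorin C, which carries the Gerbich antigens and anchors protein 4.1R to the membrane. Its counts were 2729, 2669 and 2358 in SEM::mock and 2525, 1405 and 1611 in SEM::EGR3. After scaling, SEM::mock had 482, 447 and 462 CPM and SEM::EGR3 163, 189 and 178 CPM. No library of either line came near the other line. The log2 fold change was -1.40 with a standard error of 0.06 (adjusted p = 1.5e-16, edgeR). GYPC lies on another chromosome than GYPB and GYPE, and its nearest tested neighbours lay on either side of 0. TSN, 4888080 bases away, was also lower, with a log2 fold change of -0.19, and BIN1, 351357 bases away, was higher, with one of 2.40 (adjusted p = 0.00885 and 2.95e-17, edgeR).

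RHAG (ENSG00000112077, chromosome 6, 49605158 to 49636884, minus strand) encodes a membrane channel for ammonia that the RhD and RhCE proteins need to reach the cell surface. SEM::mock gave 1169, 1224 and 1007 counts of it, and SEM::EGR3 1039, 469 and 643. The corresponding levels were 207, 205 and 197 CPM and 67.0, 63.2 and 71.1 CPM. The replicates of a line lay close together and the lines far apart. The log2 fold change was -1.60 with a standard error of 0.06 (adjusted p = 1.48e-17, edgeR), a ratio of 3.03 between SEM::mock and SEM::EGR3. On either side of RHAG, the nearest tested genes were also lower in SEM::EGR3, C6orf141, which fell by 1.08 on the log2 scale (adjusted p = 0.00152, edgeR) and passed the low-count filter only through SEM::mock, and TFAP2B, 1181839 bases away, which fell by 1.73 on the log2 scale (adjusted p = 2.71e-13, edgeR).

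The antigen-bearing partners of RHAG changed less than RHAG itself. RHCE, which encodes the C/c and E/e antigens, had 58.1 ± 5.62 CPM in SEM::mock and 47.5 ± 3.12 CPM in SEM::EGR3 (SD, n = 3 each), a log2 difference of -0.30 (SE 0.08, adjusted p = 0.00147, edgeR). RHD, which encodes the D antigen, had 32.7 ± 4.76 and 27.1 ± 1.09 CPM (SD, n = 3 each), a log2 difference of -0.27 (SE 0.10, adjusted p = 0.0198, edgeR). The libraries of the lines overlapped for RHD but not for RHCE. Whether these differences between RHAG and its partners exceed error was not tested. RHCE and RHD are close copies, with first promoter windows 99.1% identical over 213 bases, and reads may have been split between them.

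SLC4A1 (ENSG00000004939, chromosome 17, 44248385 to 44268141, minus strand) encodes band 3, the chloride-bicarbonate exchanger and most abundant integral protein of the red cell, which carries the Diego antigens. Only 3, 1 and 2 counts were found in SEM::mock, and 35, 16 and 26 in SEM::EGR3. That is 0.53, 0.167 and 0.392 CPM against 2.26, 2.16 and 2.87 CPM. Every SEM::EGR3 library was above every SEM::mock library, at a level that was low in both lines. The summed counts, 6 and 77, give a ratio of 6.71 with an exact 95% interval of 2.95 to 18.9, which covers counting error only. The fitted log2 fold change was 2.70 with a standard error of 0.45 (adjusted p = 8.67e-06, edgeR). SLC4A1 passed the filter on low counts only through SEM::EGR3, so that a gene of this kind had to differ to be tested. Its nearest tested neighbours were AC003102.1 (log2 fold change 0.68, adjusted p = 0.0838, edgeR) and SLC25A39, which was lower by 0.54 on the log2 scale (adjusted p = 1.41e-08, edgeR).

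ANK1 (ENSG00000029534, chromosome 8, 41653220 to 41896762, minus strand) encodes ankyrin-1, the adaptor between band 3 and β-spectrin. Its counts were 630, 681 and 558 in SEM::mock and 3427, 1561 and 1941 in SEM::EGR3. Scaled, these were 111, 114 and 109 CPM against 221, 210 and 215 CPM. The libraries of each line differed by a few percent, and ANK1 was the well-counted member that moved upwards. The log2 fold change was 0.95 with a standard error of 0.06 (adjusted p = 1.28e-13, edgeR), and 82.5% of all tested genes had a lower one. Beside it, KAT6A rose by 0.41 on the log2 scale (adjusted p = 1.64e-05, edgeR), while GPAT4 had a log2 fold change of 0.14 and did not pass the threshold (adjusted p = 0.0599, edgeR). A lincRNA that overlaps ANK1 on the same strand, AC027702.1, had at most 6 counts per SEM::mock library and 23 to 36 per SEM::EGR3 library, far fewer than ANK1. The annotation gives 7 ends of coding ANK1 transcripts, and counts per gene do not tell them apart.

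The spectrin partner of ANK1 was measured beside it. SPTB, the β-spectrin that binds ankyrin, rose from 24.2 ± 1.85 to 39.6 ± 2.57 CPM (SD, n = 3 each), or by 0.71 on the log2 scale (SE 0.09, adjusted p = 2.39e-07, edgeR). ANK1 and SPTB, whose proteins bind each other, thus both rose.

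**Figure D2:**
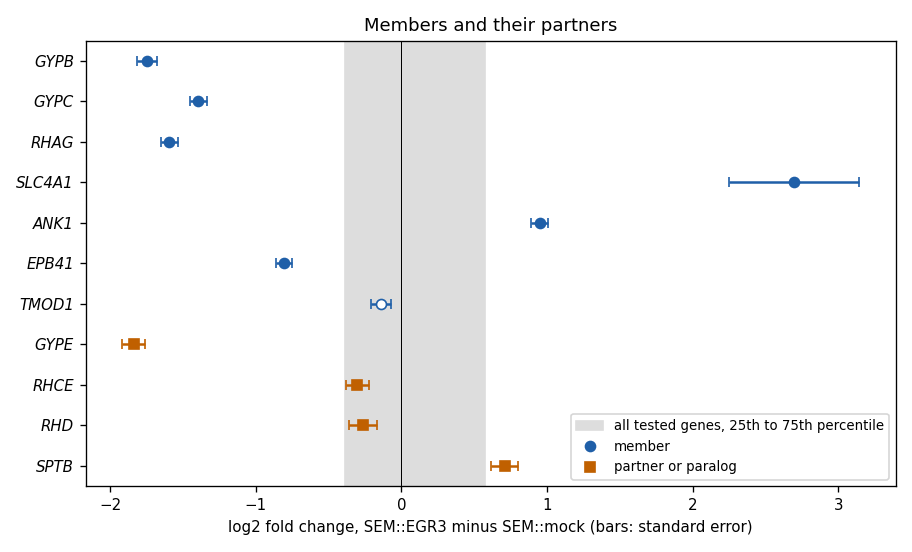
Log2 fold change of SEM::EGR3 minus SEM::mock (horizontal axis, with standard error) for 7 members (blue circles, open where not past the threshold) and 4 partners or paralogs (orange squares); the gray band runs from the 25th to the 75th percentile of all tested genes. GYPB, GYPC, GYPE, RHAG and EPB41 lie left of the band, and ANK1, SLC4A1 and SPTB to its right.

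EPB41 (ENSG00000159023, chromosome 1, 28887091 to 29120046, plus strand) encodes protein 4.1R, which stabilizes the spectrin-actin junction. SEM::mock libraries gave 1209, 1325 and 1102 counts and SEM::EGR3 libraries 1885, 898 and 1181. Scaled for depth, the levels were 214, 222 and 216 CPM and 122, 121 and 131 CPM. The lines were clearly separate, although the raw counts overlapped. The log2 fold change was -0.81 with a standard error of 0.06 (adjusted p = 2.77e-12, edgeR), smaller than that of GYPC, the glycophorin that protein 4.1R binds. The neighbouring genes YTHDF2 and SRSF4 had log2 fold changes of -0.23 and -0.11 (adjusted p = 0.000948 and 0.203, edgeR). EPB41 is widely spliced, with 21 annotated ends of coding transcripts, and forms of the erythroid and other kinds were not told apart.

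EPB42 (ENSG00000166947, chromosome 15, 43197227 to 43221125, minus strand) encodes protein 4.2, a transglutaminase-like protein without enzyme activity. No SEM::mock library had a count of it (0, 0 and 0), and the SEM::EGR3 libraries had 1, 3 and 0. The 0 counts of SEM::mock allow a level of up to 0.179 CPM over the line (3 counts), above the 0.125 CPM that the 4 counts of SEM::EGR3 amount to. Counts of EPB42 were thus at or under the detection limit in both lines, and no fold change is given. AC068724.4 overlaps EPB42 on the same strand, and 23.8% of the 50-base words of the EPB42 end also occur in it. AC068724.4 had at most 1 count in any library. Reads matching both genes may not have been counted, so the low counts need not mean absent expression. CCNDBP1, which lies 51 bases from EPB42, had 205 to 255 counts in SEM::mock, and ATP5PDP1 on the other side had a log2 fold change of -0.34 (adjusted p = 0.358, edgeR).

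TMOD1 (ENSG00000136842, chromosome 9, 97501180 to 97601748, plus strand) gave 340, 402 and 352 counts per SEM::mock library and 919, 445 and 533 per SEM::EGR3 library. Its levels were 60.1, 67.3 and 69.0 CPM against 59.3, 59.9 and 58.9 CPM. The lowest SEM::mock library came within 1 CPM of the highest SEM::EGR3 library. The log2 fold change was -0.14 with a standard error of 0.07 and did not pass the threshold (adjusted p = 0.0741, edgeR). Without SEM::mock replicate 1 it was -0.22 and passed (adjusted p = 0.0123, edgeR). TSTD2 overlaps TMOD1 on the opposite strand, with 105 to 147 counts in SEM::mock and 217 to 399 in SEM::EGR3, and strand use in counting is not given in the sources used here. The flanking genes TDRD7 and NCBP1 were lower by 0.47 and 0.17 on the log2 scale (adjusted p = 0.000678 and 0.0191, edgeR).

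**Figure D3:**
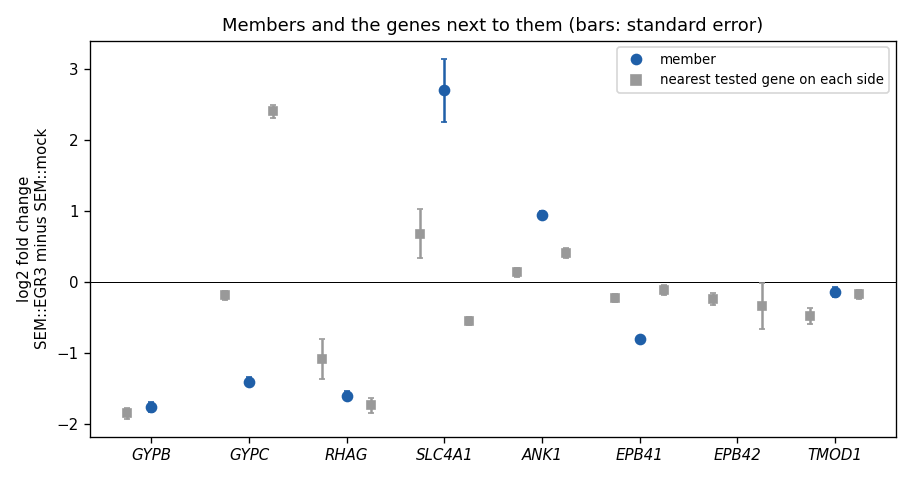
Log2 fold change of SEM::EGR3 minus SEM::mock (vertical axis, with standard error) for each member (blue circles) and the nearest tested gene on its lower- and higher-coordinate side (gray squares, for GYPB on the lower side alone); EPB42 was not tested. GYPE beside GYPB and the genes around RHAG lie below 0 with them, while BIN1 beside GYPC lies at 2.40.

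Ratios of counts within a library need no scaling between libraries. They show how genes moved relative to each other, not the direction of either gene alone. There were 0.231, 0.255 and 0.237 ANK1 counts per GYPC count in SEM::mock and 1.36, 1.11 and 1.20 in SEM::EGR3, a 5.08-fold higher mean. Per RHAG count, ANK1 went from 0.550 ± 0.00949 to 3.22 ± 0.171 (SD, n = 3 each). Per EPB41 count it went from 0.514 ± 0.00737 to 1.73 ± 0.0874 (SD, n = 3 each). In contrast, GYPB per RHAG count was 0.911 ± 0.0891 in SEM::mock and 0.817 ± 0.0700 in SEM::EGR3 (SD, n = 3 each), with overlapping libraries. The decrease of these 2 genes, which lie on different chromosomes, did not differ beyond the spread of the libraries. RHAG per GYPC count was 0.438 ± 0.0178 in SEM::mock and 0.381 ± 0.0417 in SEM::EGR3 (SD, n = 3 each). The libraries did not overlap but came close, at 0.427 for the lowest of SEM::mock and 0.411 for the highest of SEM::EGR3. On average RHAG had the larger decrease of the pair in these libraries. RHAG per EPB41 count fell from 0.935 ± 0.0282 to 0.539 ± 0.0151 (SD, n = 3 each), so the decrease of EPB41 was the smaller. These ratios are given without a test.

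The replicates were close. For the 6 members with over 300 counts in every library, the coefficient of variation was 1.96% (EPB41) to 9.58% (GYPB) in SEM::mock, where counting alone gives 1.97% (GYPC) to 5.24% (TMOD1). In SEM::EGR3 it was 0.883% (TMOD1) to 7.50% (GYPC), with 2.08% (ANK1) to 4.11% (GYPB) from counting. The spread between replicates of SLC4A1 was 50.4% in SEM::mock and 16.0% in SEM::EGR3, as its low counts allow.

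Other proteins of the membrane skeleton moved both ways. Of 11 listed genes, all were tested, 4 were higher and 6 lower at an adjusted p under 0.05 (edgeR). That is 36.4% higher and 54.5% lower, where 36.5% and 32.0% of all tested genes were called, and the median log2 fold change was -0.12, against 0.03 over all tested genes. ADD3, the γ subunit of adducin, which caps the fast-growing ends of actin filaments, rose from 39.4 ± 2.92 to 91.6 ± 5.04 CPM (SD, n = 3 each). DMTN, the actin-bundling protein dematin, rose by 0.72 on the log2 scale, much like SPTB. MPP1, which joins GYPC and protein 4.1R in 1 complex, fell from 128 ± 8.73 to 63.7 ± 4.42 CPM (SD, n = 3 each), and tropomyosin TPM1 from 22.0 ± 2.11 to 10.8 ± 0.662 CPM (SD, n = 3 each). GYPC, EPB41 and MPP1, which meet in that complex, were all lower in SEM::EGR3, whereas ANK1 and SPTB of the band 3 anchor were higher. These genes are a selection: the actin-binding ADD3 and DMTN rose, and the membrane proteins RHAG and GYPB fell. A direction by complex was not tested. Adjusted p-values of ADD3, DMTN, MPP1 and TPM1 were between 2.39e-13 (ADD3) and 4.65e-08 (TPM1) in edgeR.

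Blood group genes were mostly lower. Of 32 carriers or makers of blood group antigens beside the members, 25 were tested, 19 were lower and 6 higher (76.0% of those tested were lower and 24% higher, where 32.0% and 36.5% of all tested genes were), and their median log2 fold change was -0.62 (edgeR, adjusted p under 0.05). The list holds GYPE, RHCE and RHD, described above. ICAM4, the adhesion molecule that carries the Landsteiner-Wiener antigens, fell from 36.2 ± 3.49 to 8.62 ± 1.98 CPM (SD, n = 3 each). ABCG2, a transporter that carries the Junior antigen, fell from 36.5 ± 4.89 to 8.84 ± 0.877 CPM (SD, n = 3 each). Their log2 fold changes were -2.12 and -2.06. Higher were SEMA7A, a semaphorin with the John Milton Hagen antigens, from 35.0 ± 1.53 to 104 ± 3.67 CPM (SD, n = 3 each), the water channel AQP1 from 3.56 ± 0.772 to 11.1 ± 0.158 CPM (SD, n = 3 each), and the complement receptor CR1 with a log2 fold change of 1.78. Many of these genes, such as SEMA7A and CR1, are also expressed in white cells. SEMA7A, AQP1, ICAM4 and ABCG2 had adjusted p-values of 2.39e-08 (AQP1) or lower. CR1 passed the low-count filter only through SEM::EGR3, so its adjusted p of 7.8e-07 (edgeR) is no separate support for a difference.

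Of 15 listed channels, transporters and carbonic anhydrases of the red cell, 14 were tested, 5 were higher and 8 lower (35.7% and 57.1%, against 36.5% and 32.0% of all tested genes), and the median log2 fold change was -0.28. CA2, a cytosolic carbonic anhydrase, had 5 to 8 counts per SEM::mock library and 64 to 99 per SEM::EGR3 library, a fitted log2 fold change of 2.66. It passed the low-count filter only through SEM::EGR3, so a gene of its level had to differ to be tested. The plasma membrane calcium pumps ATP2B1 and ATP2B4 rose by 1.27 and 1.11 on the log2 scale. Lower were the nucleotide exporter ABCC4, the glucose transporter SLC2A1, from 263 ± 9.83 to 134 ± 3.34 CPM (SD, n = 3 each), and the potassium channel KCNN4, with log2 fold changes of -1.40, -0.98 and -0.69. Adjusted p-values of the pumps, ABCC4, SLC2A1 and KCNN4 ranged from 1.07e-14 (ABCC4) to 0.00752 (KCNN4).

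**Figure D4:**
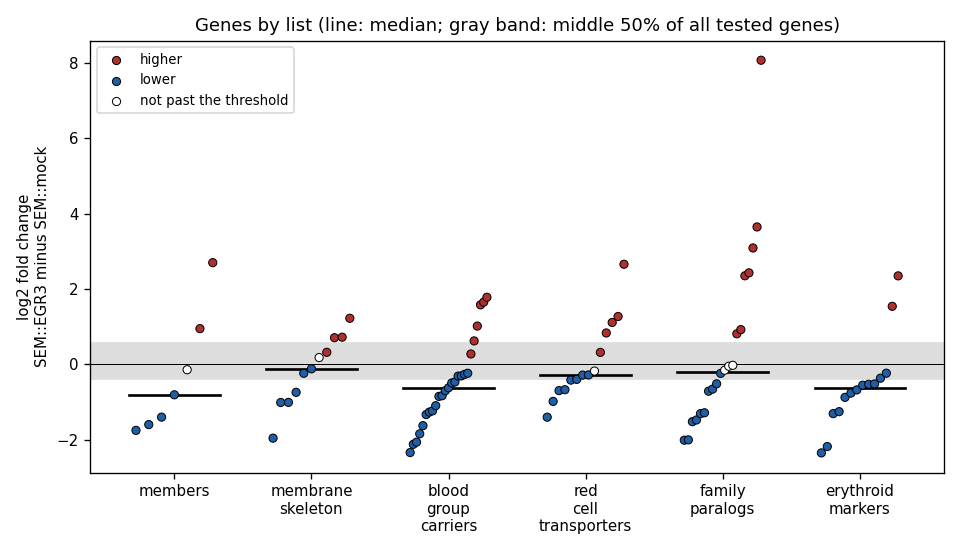
Log2 fold change of SEM::EGR3 minus SEM::mock (vertical axis) of every tested gene of the members and 5 lists (points, colored by call), with each list's median (line) and the 25th to 75th percentiles of all tested genes (gray band). Blood group carriers and erythroid markers lie mostly below 0, with medians of -0.62 and -0.61, and SLC4A7 stands at 8.07 among the paralogs.

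Relatives of the members that serve other tissues were compared as well. Of 31 paralogs 20 were tested, 7 were higher and 10 lower (35.0% higher and 10 of 20 lower, against 36.5% and 32.0% of all tested genes), with a median log2 fold change of -0.20. The bicarbonate transporter family of SLC4A1 held the largest increases: SLC4A7, a sodium-bicarbonate cotransporter, gave 1, 3 and 1 counts per SEM::mock library and 1349, 602 and 756 per SEM::EGR3 library. The ratio of its summed counts was 283, with an exact 95% interval of 121 to 873 for counting error. SLC4A3, an anion exchanger like band 3, rose from 1.51 ± 0.227 to 13.0 ± 0.963 CPM (SD, n = 3 each), and SLC4A8 had 1 to 4 counts per SEM::mock library against 37 to 97. Among the relatives of EPB41, EPB41L2 fell from 83.6 ± 4.31 to 33.9 ± 1.53 CPM and EPB41L5 from 9.02 ± 0.533 to 3.16 ± 0.416 CPM (SD, n = 3 each). TGM2, an active relative of EPB42, fell from 34.1 ± 4.22 to 8.84 ± 1.48 CPM (SD, n = 3 each). These 6 genes had adjusted p-values of 1.56e-07 (EPB41L5) or lower in edgeR. SLC4A7, SLC4A8 and SLC4A3, like SLC4A1, passed the low-count filter only through SEM::EGR3, so their p-values are no separate support for a difference.

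Erythroid markers outside the membrane were mostly lower in SEM::EGR3. Of 16 genes 14 were tested, 12 were lower and 2 higher (85.7% and 14.3%, against 32.0% and 36.5% of all tested genes), with a median log2 fold change of -0.61. The exceptions were the α-globin genes HBA1 and HBA2, with log2 fold changes of 1.54 and 2.35 (adjusted p = 1.87e-18 and 7.22e-20, edgeR), near-identical copies between which reads may have been split. Falling glycophorin, RHAG and γ-globin (HBG2) RNAs thus stood beside rising ANK1, SPTB and α-globin RNAs, and whether they share a cause was not tested. RHCE and RHD fell less, and SLC4A1 rose from a few counts and passed the low-count filter only through SEM::EGR3.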

How the data were processed

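RNA of 3 SEM::mock and 3 SEM::EGR3 replicates was profiled by MACE-Seq. The authors deposited raw counts per gene and library, and CPM values under the name TPM, which are the counts per 1000000 of a larger library total (listed genes 73.6% to 75.8% of it). The submitters' processing notes name bcl2fastq, Bowtie2, HTSeq and GRCh38. Versions, strand setting and treatment of multi-mapping reads are not given in the sources used here. Columns headed ERG3 were read as SEM::EGR3, the one overexpressing line in the titles. The authors' own fold changes and p-values were not used, and 0 per-sample columns remained unmapped.

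The deposited counts were tested with edgeR 4.0.16 under R 4.3.3 (filterByExpr, TMM, glmQLFit, glmQLFTest) over all 6 libraries, with Benjamini-Hochberg adjustment over 15465 genes. Standard errors were derived from the log2 fold change and the F statistic. The procedure was tested on simulated data. Positions are from GENCODE release 29 (97.0% of gene identifiers found). The 8 members, the gene lists and the rule for named genes were chosen with earlier results of these data known. Named were the members, EGR3, partners of GYPB, RHAG and ANK1, up to 3 genes per direction of each pathway list by log2 fold change (adjusted p under 0.05, no overlap, at least 20 counts on average in the higher line), the most counted marker of each list, and the nearest tested genes. PAX5, EBF1, CD34, HBB, AHSP, HBA1, HBA2, TSTD2 and AC027702.1 were named after their values were seen. GP1BB, PF4, PPBP and TGM3 were not analysed here. Values of some genes that the rule names are not reported here. P-values measure the spread between these replicates of 2 lines. Intervals and limits cover counting error only, as single reads need not be single molecules. Alternatives were DESeq2 1.42.0, other scaling, other filters, a replicate term, leaving out each library and a minimum fold change.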

Additional observations from a re-analysis of the deposited data

How the results depend on the processing

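Of 97 alternative values of the members' log2 fold changes, 96 kept the direction and the side of the threshold. The exception was TMOD1, which passed without SEM::mock replicate 1 (-0.22). Over all settings GYPB ranged from -1.83 to -1.66, GYPC from -1.44 to -1.31, RHAG from -1.63 to -1.51, EPB41 from -0.84 to -0.72, ANK1 from 0.92 to 1.04 and SLC4A1 from 2.33 to 3.07. With at least 10 counts in every library, SLC4A1 was not tested, 1 member was higher, and 1 family paralog instead of 7, since fewer genes were tested. With a minimum absolute log2 fold change of 1, 2581 genes were higher and 1315 lower, 1 member was higher, 1 membrane skeleton gene was higher and 3 lower, 9 blood group carriers were lower, 3 red cell transporters were higher and 1 lower, and 6 family paralogs were lower. Leaving out 1 library at a time gave 2 members higher and 4 to 5 lower, and 5312 to 5570 genes higher and 4626 to 4940 lower. Library totals behind the deposited CPM values, an alternative chosen after seeing the data, gave 2 members higher and 4 lower.

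Same-numbered libraries showed no shared deviation: their deviations correlated between -0.093 and -0.031. With 3 libraries per line, these values cannot show whether same-numbered libraries were handled together. With the replicate block, 2 members were higher and 4 lower, and 5388 genes were higher and 4693 lower. SEM::mock was sequenced less deeply than SEM::EGR3, and depth limits what can be said of SLC4A1 and EPB42, which had at most 3 counts per SEM::mock library.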

Other observations

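A pair of paralogs was too low for the test but higher in each SEM::EGR3 library than in each SEM::mock library. SLC4A5 gave 0, 2 and 1 counts per SEM::mock library and 24, 10 and 15 per SEM::EGR3 library. EPB41L4B, a relative of EPB41, gave 3, 1 and 2 counts per SEM::mock library and 23, 12 and 12 per SEM::EGR3 library. Another untested paralog, TGM5, went the other way after scaling for depth, with 4, 4 and 4 counts in SEM::mock and 4, 1 and 1 in SEM::EGR3. These genes were named after their counts were seen, and no test was made.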
